A study of Mus musculus with 32 samples.

Results

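The comparison set BV-2 cells transfected with a miR-7a-5p mimic (VEH_miR-7a, 4 libraries) against BV-2 cells transfected with a scramble mimic (VEH_scramble, 4 libraries), both under vehicle and without lipopolysaccharide. These 8 libraries were chosen by their sample titles out of 32 in the series, and all genes were considered. Of the 45706 genes in the deposited table, 11061 had enough counts and certain values in all 8 libraries to be tested. BV-2 is a mouse cell line used as a model of microglia, the macrophages of brain tissue. A mimic is a short RNA duplex that supplies a cell with 1 mature microRNA, and the scramble mimic is a duplex with no intended target. The study also transfected miR-29a and miR-146a mimics and gave a second set of groups LPS, a bacterial component that activates macrophages, at 10 ng/ml for 24 h. All groups are the wild-type line, so none models a mouse, and the labels carry an entry on the age of mice that cannot describe a cell line. The labels place LPS or vehicle before transfection and the study's methods place it after, so what vehicle preceded or followed cannot be told apart here. The study calls the replicates independent experiments, while the labels only number them, and p-values measure the spread between these libraries.

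A microRNA guides an Argonaute protein to messenger RNAs whose 3′ untranslated region (3′ UTR) pairs with its seed, the bases near its 5′ end, and the message is then translated less and decays faster. miR-7 is abundant in neurons and endocrine cells. It is known for targets in growth factor signalling and for its binding to the circular RNA Cdr1as.

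The mature miR-7a-5p is shown because every site below is a match to its seed. It lies at chr13:58392841-58392863 on the minus strand (Mir7-1) and at chr7:78888295-78888317 on the plus strand (Mir7-2), by RefSeq on GRCm38.p6. Capitals mark seed bases 2 to 8.
miR-7a-5p: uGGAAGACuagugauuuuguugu

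A 3′ UTR was searched on the transcript strand for GTCTTCCA (an 8mer, the seed match followed by A), GTCTTCC (7mer-m8), TCTTCCA (7mer-A1) and TCTTCC (6mer), and each gene was placed in its best class, so the classes do not overlap. Sites of genes that the results turn on are given from GENCODE M21 on GRCm38, with the match in capitals. All lie in the annotated 3′ UTR. The first 8 lines belong to genes whose 4 mimic values all lay below the 4 scramble values, and Rps6kb1 is shown because it carries the same 8mer and did not separate.
Mknk2, chr10:80666767-80666788, minus strand: cagccactctgctGTCTTCCAg
Cat, chr2:103454192-103454213, minus strand: atacttgcatcatGTCTTCCAa
Ctsk, chr3:95509237-95509258, plus strand: agtgaacatttcaGTCTTCCAc
Tpp1, chr7:105746313-105746334, minus strand: gcaagaaggttcaGTCTTCCAt
Egr3, chr14:70080603-70080624, plus strand: accggaggagatgGTCTTCCAt
Pan2, chr10:128321240-128321261, plus strand: ctgagaagtatctGTCTTCCAt
Spata2, chr2:167482539-167482560, minus strand: cctgggttctttaGTCTTCCAa
Spata2, chr2:167481406-167481427, minus strand: aaaaaaataaagtGTCTTCCAt
Rps6kb1, chr11:86501465-86501486, minus strand: ccttttgatgaatGTCTTCCAt

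The mimic libraries were the shallower group and differed among themselves. After the lost decimal marks of the table were restored, the scramble libraries 1 to 4 held 6119811, 3857763, 4666246 and 9622869 counts, and the mimic libraries 5229469, 1862448, 2528948 and 1239255. Small structural RNA genes (snoRNA, snRNA, 7SK, 7SL, RNase P and the like) took 6.77%, 12.4%, 10.5% and 9.83% of the scramble libraries, and 4.12%, 36.9%, 33.8% and 37.2% of the mimic libraries. Mimic replicate 1 lay below all 4 scramble libraries and the other 3 far above them, and the mean difference of 18.2 percentage points gave p = 0.143 in an exact two-sided permutation test, of which the smallest possible p was 0.0286. The place of replicate 1 turned with the restoration: its share was 27.1%, above all scramble libraries, with a simpler restoration that uses 1 set of library sizes, and 8.28%, below them, on the values as deposited. Of its restored structural RNA values with decimals, 13.6% had fewer than 3 decimals in the restoration used here and 75% in the simpler one, against 4.39% and 5.00% for its other genes. Values of structural RNA genes in replicate 1 are therefore uncertain. Without mimic replicate 1 the difference was 26.1 points, a value given without a test because that library was set aside for its share. Below, values are counts per 1000000 counts of a library (CPM) after TMM scaling, and a gene passed the test, or was called, when its adjusted p was under 0.05 and its log2 fold change lay more than 0.3 from 0 in limma-voom with Benjamini-Hochberg adjustment over all 11061 genes. In bulk RNA, fewer cells of a kind and less RNA per cell cannot be told apart.

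**Figure D1:**
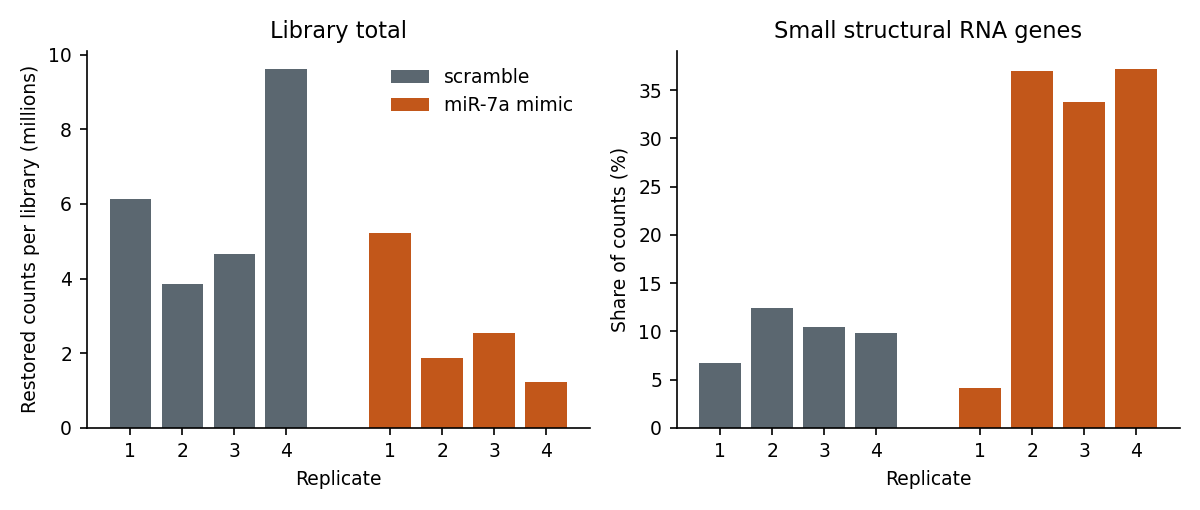
Total restored counts per library, in units of 1000000 (left), and the percentage of them that fell on small structural RNA genes (right), 1 bar per library, for the 4 scramble and 4 miR-7a mimic libraries under vehicle. Mimic replicates 2 to 4 hold 1239255 to 2528948 counts with 33.8% to 37.2% structural RNA, while mimic replicate 1 holds 5229469 with 4.12%.

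The cells carried general macrophage markers and lacked those of mature brain microglia. Csf1r, the receptor for macrophage growth factors, lay between 442 and 971 CPM, and Cd68, Lyz2, Trem2, Tyrobp and Spi1 were present in all 8 libraries. Sall1, a transcription factor of microglial identity, was at 0 in all 8, and Tmem119 and Siglech did not exceed 2.496 CPM. Each of the lists of 6 astrocyte, 6 neuron and 6 fibroblast markers summed to at most 2.29 CPM in any library, and the 6 lymphocyte markers were at 0. Of the 5 endothelial markers, Flt1 made up nearly all of the summed level (141 to 265 CPM), and the oligodendrocyte list summed to at most 17.9 CPM, in mimic replicate 4, through Mbp.

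In the fit without a replicate block few single genes passed the test: 6 of 11061 (0.0542%), of which 5 rose (0.0452%) and 1 fell (0.00904%). Adding a block for the library numbers gave 355 calls, 217 higher and 138 lower, the 6 among them. Some genes given below as not called passed with the block. Among them were Nr4a1, Mknk2 and Tnip3 (adjusted p = 0.0007, 0.00241 and 0.00202, limma). Cat, Ctsk, Hgsnat and Vdac1 passed with the block too (adjusted p = 0.00167, 0.00219, 0.00102 and 0.035, limma). Mtor, Mknk1 and Pan2 did not pass with it (adjusted p = 0.0963, 0.0959 and 0.0831, limma). Other limma results below are without the block unless stated. At an unadjusted p under 0.05 there were 730 genes higher (6.6%) and 670 lower (6.06%), and for 340 genes (3.07%) all 4 mimic values lay above the 4 scramble values, against 501 (4.53%) below. The median log2 fold change of all genes tested was -0.01. None of the 6 genes holds a 7- or 8-base match to the miR-7a seed in the 3′ UTR used.

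Irg1 (chr14:103046977-103056573, plus strand) encodes the mitochondrial enzyme that makes itaconate in activated macrophages. It was measured at 5.79, 5.61, 5.22 and 5.81 CPM with scramble and at 22.7, 19.9, 30.1 and 21.5 CPM with the mimic. The groups lay far apart, and Irg1 rose 4.15-fold (log2 fold change 2.05 ± 0.24 SE, adjusted p = 0.00686, limma). Acp5 (chr9:22126727-22135711, minus strand), the tartrate-resistant acid phosphatase of osteoclasts and some macrophages, was at 7.52, 7.74, 6.13 and 6.86 CPM with scramble and at 28.6, 23.7, 32.3 and 25.1 CPM with the mimic. It rose 3.96-fold with no overlap (SE 0.22 on the log2 scale, adjusted p = 0.00686, limma). The reverse-strand gene 6530413G14Rik overlaps Acp5.

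C3 (chr17:57203970-57228136, minus strand), the component on which all routes of complement activation converge, had 270, 236, 138 and 122 CPM with scramble and 798, 667, 591 and 545 CPM with the mimic. The lowest mimic library held more than the highest scramble library, and C3 rose by a log2 fold change of 1.83 ± 0.25 SE (adjusted p = 0.02, limma). Ifit2 (chr19:34550694-34576419, plus strand), an interferon-induced protein that binds viral RNA, was measured at 10.1, 7.47, 7.26 and 7.18 CPM with scramble and at 22.4, 45.8, 31.2 and 27.5 CPM with the mimic. It rose with no overlap by 1.84 ± 0.27 SE on the log2 scale (adjusted p = 0.0302, limma).

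Adssl1 (chr12:112620045-112641360, plus strand), the muscle-type adenylosuccinate synthase of AMP synthesis, was the 1 gene that fell. Its values were 137, 143, 205 and 167 CPM with scramble and 63.8, 54.2, 69.0 and 60.9 CPM with the mimic, which do not overlap. It fell by 1.36 ± 0.19 SE on the log2 scale (adjusted p = 0.02, limma). Gm2026 (chr2:175965331-175980303, plus strand) went from 1.45, 1.602, 4.99 and 1.16 CPM to 10.96, 16.04, 17.8 and 32.2 CPM (log2 fold change 3.06 ± 0.47 SE, adjusted p = 0.0465, limma). It is a predicted gene among near-identical zinc finger genes that can share reads, so its value is uncertain.

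The number of genes past the threshold moved with single libraries. Without scramble replicate 4, limma called 0 of 11189 genes (956 at an unadjusted p under 0.05). Irg1 and Acp5 were the 2 genes called without scramble replicate 3 or without mimic replicate 2, 3 or 4, and 4 genes were called without scramble replicate 2, 42 without scramble replicate 1 and 243 without mimic replicate 1. On the same 8 libraries the edgeR quasi-likelihood test called 39 genes, 20 higher (0.181%) and 19 lower (0.172%), and DESeq2 called 259, 139 higher (1.26%) and 120 lower (1.08%), the 6 among them in both. The log2 fold changes of the 6 genes kept their direction when any 1 library was left out, with Irg1 between 1.94 and 2.11 and Adssl1 between -1.44 and -1.26.

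**Figure D2:**
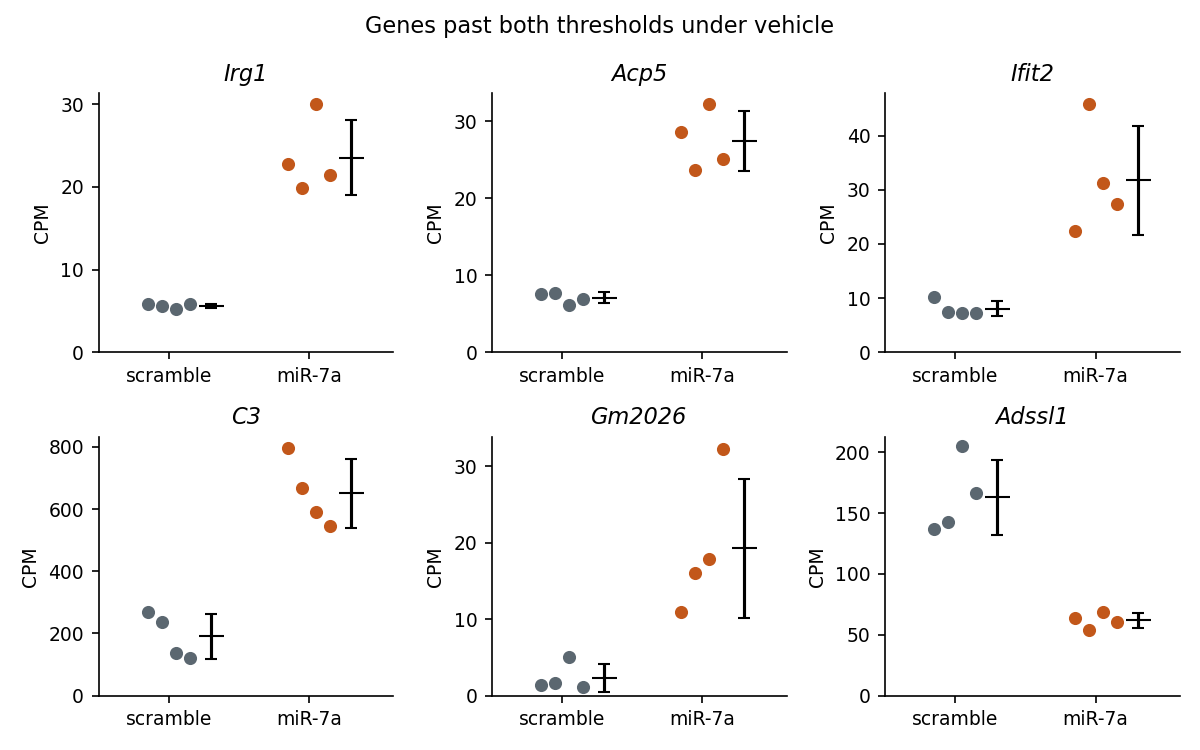
CPM after TMM scaling of the 6 genes that passed the test, with 1 point per library and the mean ± SD of 4 libraries beside the points; the vertical axis starts at 0 in each panel. The 4 mimic values of Irg1 (19.9 to 30.1) lie above the 4 scramble values (5.22 to 5.81), and those of Adssl1 (54.2 to 69.0) lie below them (137 to 205).

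**Figure D3:**
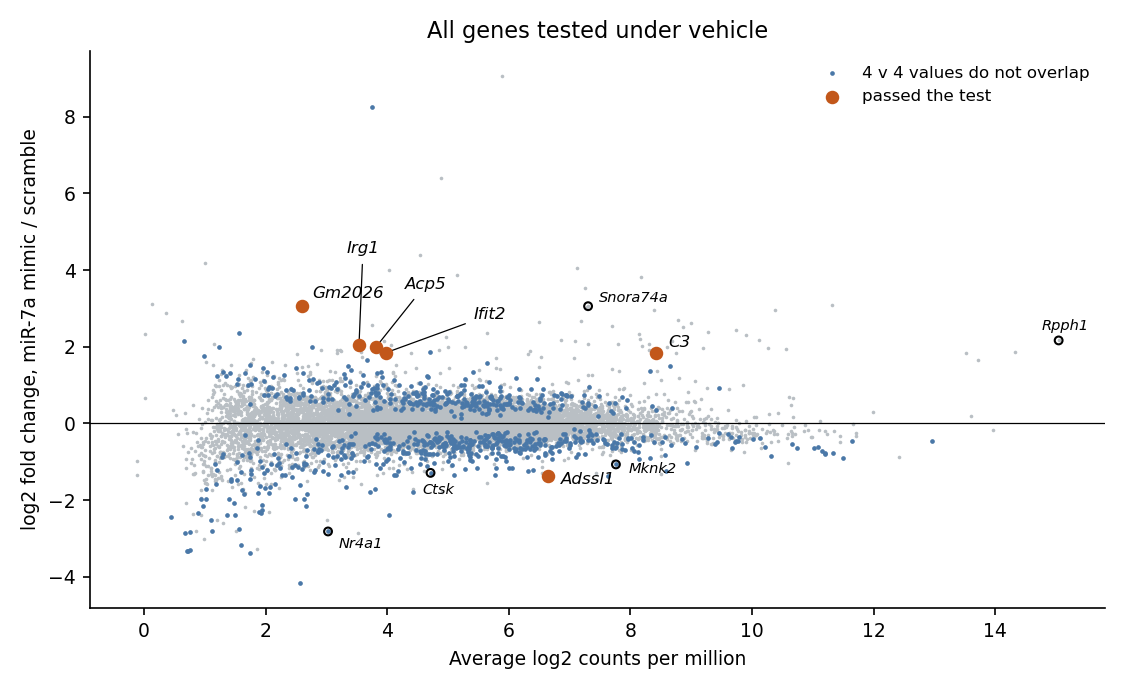
The log2 fold change of the 11061 genes tested (vertical) against their average log2 CPM (horizontal), with 1 point per gene. Orange points are the 6 genes that passed the test, blue points are the 841 genes whose mimic and scramble values do not overlap, and open circles mark further named genes that did not pass, such as Mknk2 at -1.07.

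Genes with the longest seed match in the 3′ UTR sat lower than other genes with the mimic. Of 10066 tested genes with a 3′ UTR record, 400 (3.97%) had an 8mer, 921 (9.15%) a 7mer-m8, 1133 (11.3%) a 7mer-A1 and 1879 (18.7%) a 6mer as best match. The median log2 fold change was -0.15 for the 8mer class, of which 65.5% lay below 0, and -0.08 for the 7mer-m8 class. It was 0.02 for 7mer-A1, 0.00 for 6mer and 0.00 for the 5733 genes without a match. The classes are described and not tested, since genes are not replicates.

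The 8mer class lay below 0 in each mimic library. The 8mer median against the scramble mean was -0.13, -0.22, -0.12 and -0.11 in mimic replicates 1 to 4, so replicate 1 lay between the others. The 4 medians share that scramble mean and are not independent, here and for the lists below. The median of the genes without a match was 0.03, -0.03, 0.01 and -0.05 in the same libraries. Of the 8mer genes, 44 (11%) had all 4 mimic values below the scramble values and 8 (2%) had all above, against 3.98% and 3.21% of the genes without a match. At an unadjusted p under 0.05, 50 of the 8mer genes were lower (12.5%) and 16 higher (4%), against 6.06% and 6.6% of all genes tested.

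No gene of the 8mer class passed the test in limma without the replicate block, while edgeR called 7 lower and 0 higher, and DESeq2 called 15 lower and 1 higher. With the block Mknk2, Cat and Ctsk were among the genes called. Over all genes tested, edgeR called 19 lower (0.172%) and DESeq2 120 (1.08%). The 8mer median was lower than that of the genes without a match in every alternative run, by 0.06 to 0.19 on the log2 scale. The smallest gap was on the values as deposited, where the 8mer median was -0.29, that of the genes without a match -0.24 and that of all genes -0.32, so that the 8mer class did not lie below all genes. Genes with a site have longer 3′ UTRs (median 2255 bases for the 8mer class and 589 without a match). Within 4 equal bins of 3′ UTR length, genes with a 7- or 8-base match had medians of -0.09, -0.12, -0.09 and 0.02 from the shortest to the longest bin, and genes without any match, 6mers left out, had -0.07, 0.00, 0.06 and 0.11.

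Seed matches to the other mimics of the study served as a comparison. In the same 8 libraries, genes with an 8mer for miR-29a had a median of 0.03 (312 genes), and those with an 8mer for miR-146a had a median of 0.05 (420 genes). With the miR-29a and miR-146a mimics under vehicle, the genes with a miR-7a 8mer had medians of 0.05 and 0.07 against the same 4 scramble libraries.

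**Figure D4:**
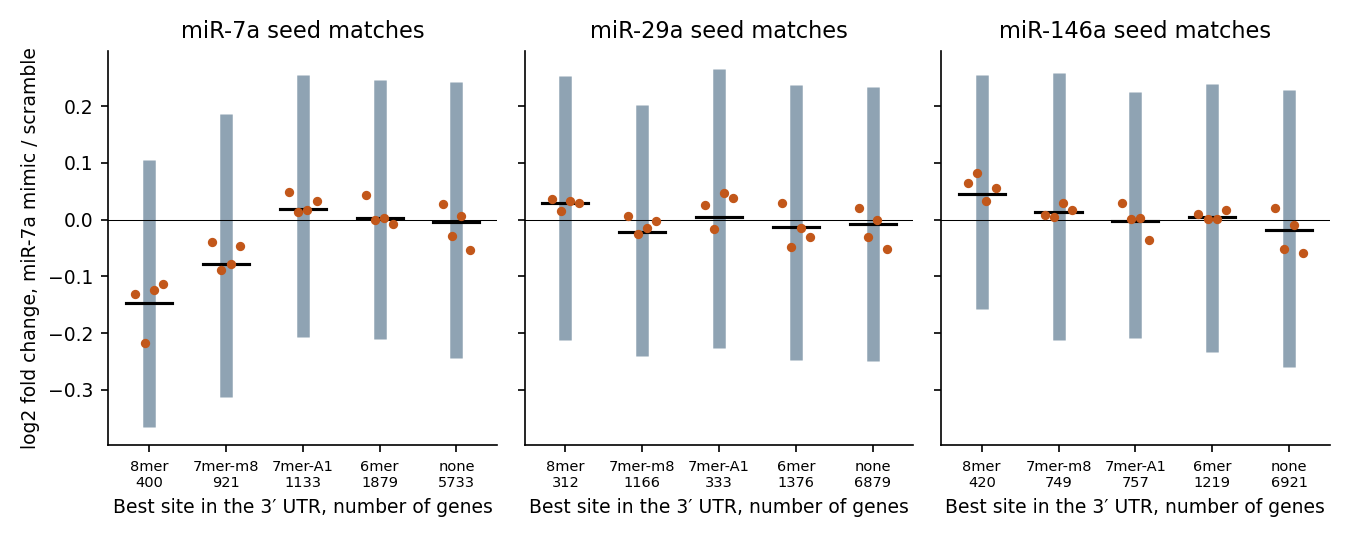
The log2 fold change of miR-7a mimic over scramble for genes grouped by their best 3′ UTR match to the seed of miR-7a, miR-29a or miR-146a, with the number of genes under each class. The bar spans the lower to upper quartile, the line is the median, and the 4 points are medians in the mimic libraries; the miR-7a 8mer median is -0.15 and the miR-29a and miR-146a 8mer medians are 0.03 and 0.05.

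Published miR-7 targets were low as a group, without a gene past the test in the fit without a block. With the replicate block Mknk2 and Vdac1 were among the genes called. Of 33 listed targets 27 were tested, 21 of them lay below 0, and their median log2 fold change was -0.29. In limma 0 were called (0.00904% of all genes were called lower), 8 were lower (6.06%) and 0 higher at an unadjusted p under 0.05, and edgeR called 1 lower (0.172%) and DESeq2 2 (1.08%), with the share of all genes tested in brackets here and beside counts below. The list median was -0.11, -0.47, -0.44 and -0.32 in mimic replicates 1 to 4, all below 0.

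Mknk2, a kinase that phosphorylates the cap-binding protein Eif4e, was measured at 246, 392, 339 and 298 CPM with scramble and at 152, 157, 135 and 156 CPM with the mimic. All mimic values were below the scramble values, at a log2 fold change of -1.07 ± 0.18 SE (adjusted p = 0.0552, limma). Its relative Mknk1 had 77.98, 82.2, 71.03 and 63.4 CPM against 55.3, 28.3, 40.1 and 64.5 CPM, an overlap through mimic replicate 4 (log2 fold change -0.68 ± 0.23 SE, adjusted p = 0.264, limma). Mknk1 holds 3 seed matches of 7 bases.

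Mtor, the catalytic subunit of the mTOR complexes, was at 84.2, 147, 72.2 and 101 CPM against 66.7, 50.4, 57.9 and 66.8 CPM, with no overlap (log2 fold change -0.68 ± 0.23 SE, adjusted p = 0.275, limma).

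Other reported targets ranged more widely. Pak1, a kinase of the actin skeleton, was at -0.43 with no overlap, and the receptor Igf1r at -0.67 with overlap. Vdac1, a channel of the outer mitochondrial membrane with an 8mer, was at -0.70, and Nlrp3, the sensor of the inflammasome, at -0.53. Irs2, an adaptor of insulin signalling with an 8mer, was at -0.19 ± 0.41 SE, and Rps6kb1, a kinase downstream of mTOR, had 48.3, 28.6, 31.5 and 34.4 CPM with scramble and 40.1, 45.8, 34.5 and 59.7 CPM with the mimic. An 8mer was thus found both in listed targets whose groups separated and in some whose groups overlapped. Parp1, Herpud2 and Ckap4, also with an 8mer, had log2 fold changes of -0.29, -0.18 and -0.39.

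Outside the target list, further genes with an 8mer separated. Catalase (Cat), which breaks down hydrogen peroxide, was measured at 107, 124, 144 and 126 CPM with scramble and at 53.8, 35.1, 71.3 and 50.1 CPM with the mimic (log2 fold change -1.25 ± 0.21 SE, adjusted p = 0.0552, limma). Cathepsin K (Ctsk), the collagen-degrading protease of osteoclasts, lay between 42.8 and 43.7 CPM in the 4 scramble libraries and at 21.3, 18.3, 15.035 and 9.55 CPM with the mimic (-1.29 ± 0.23 SE, adjusted p = 0.0645, limma). Both were below scramble in every mimic library.

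Tpp1, a lysosomal peptidase, had 349, 457, 312 and 334 CPM against 198, 173, 215 and 304 CPM (log2 fold change -0.74 ± 0.20 SE). Pan2, a deadenylase that shortens the tails of messages silenced by microRNAs, had 23.3, 26.2, 24.5 and 28.2 CPM against 14.6, 15.3, 13.4 and 17.9 CPM (-0.77 ± 0.21 SE). Spata2, an adaptor in TNF signalling with 6 seed matches of 7 or 8 bases, had 37.0, 47.5, 32.9 and 31.0 CPM against 23.2, 12.2, 16.7 and 8.35 CPM (-1.05 ± 0.28 SE). The groups of these 3 genes did not overlap, and their adjusted p-values in limma lay between 0.182 and 0.186. The gene Rnf114 overlaps Spata2 on the opposite strand.

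The genes of the miR-7 loci were at or near 0, and these libraries do not measure the mimic itself. Mir7-2, Mir7b and Cdr1 were at 0 in all 8 libraries and Mir7-1 did not exceed 0.764 CPM. Hnrnpk, the host gene of Mir7-1, was at 0.39 ± 0.21 SE on the log2 scale. The noncoding gene 1700020I14Rik, whose RNA pairs with miR-7, was at -0.11 ± 0.23 SE, and Zswim8, of the ligase that triggers microRNA decay, at 0.07 ± 0.24 SE. The groups overlapped for these 3 genes. Of 21 genes for microRNA processing and silencing, 0 were called in limma, edgeR or DESeq2, with 3 higher (6.6%) and 1 lower (6.06%) at an unadjusted p under 0.05. Against the other mimics 1700020I14Rik was lower, as given below.

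Interferon-stimulated genes leaned upward. Of 20 tested members 16 lay above 0, the median log2 fold change was 0.44, Ifit2 was called (0.0452% higher), and 8 were higher (6.6%) and 1 lower (6.06%) at an unadjusted p under 0.05. Against the same scramble libraries the list median was 0.56 with the miR-29a mimic and -0.01 with miR-146a, and between miR-7a and the other mimics it was 0.09. Rsad2, the antiviral enzyme viperin, had 4.34, 9.08, 5.90 and 12.2 CPM with scramble and 15.5, 22.1, 17.3 and 23.9 CPM with the mimic, without overlap (log2 fold change 1.26 ± 0.34 SE, adjusted p = 0.185, limma). Among 16 nucleic acid sensors the median was 0.28, with 0 called in limma, 3 higher (6.6%) and 2 lower (6.06%) at an unadjusted p under 0.05, and 1 called higher by edgeR (0.181%) and by DESeq2 (1.26%). The median of the sensors was 0.27 with either of the other mimics. Ifi203 had 43.98, 24.8, 31.5 and 39.6 CPM against 61.3, 87.8, 70.2 and 90.7 CPM (1.08 ± 0.22 SE, adjusted p = 0.0811, limma), and the related gene Mndal overlaps it. Eif2ak2, the kinase PKR that senses double-stranded RNA, had 38.8, 27.2, 22.2 and 25.5 CPM against 47.4, 50.4, 42.3 and 51.3 CPM (0.76 ± 0.21 SE, adjusted p = 0.195, limma). Tlr3, the endosomal receptor for double-stranded RNA, was at 1.82 to 3.62 CPM with scramble and 3.90 to 9.93 CPM with the mimic. These 4 genes separated without passing the test.

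In the list of itaconate, nitric oxide and arginine genes, which holds Irg1, 4 of the 8 tested members lay above and 4 below 0. At an unadjusted p under 0.05, 3 were higher (6.6%) and 0 lower, and edgeR (0.181%) and DESeq2 (1.26%) each called 2 higher. Its member Arg1 had 286, 236, 140 and 167 CPM against 577, 612, 381 and 500 CPM, without overlap (1.35 ± 0.24 SE, adjusted p = 0.0642, limma). Slc7a2, an arginine transporter, was at 0.60 with overlap. In the complement list C3 was the 1 gene called of 14, and C1qb and Cfp were at 0.47 and 0.87 with overlap. The complement median was 0.26 here, and the miR-29a and miR-146a mimics gave 0.26 and 0.34 against the same scramble libraries. Of 32 NF-kappa-B pathway and cytokine genes 0 were called in limma and edgeR and 1 higher in DESeq2 (1.26%), with 1 higher (6.6%) and 2 lower (6.06%) at an unadjusted p under 0.05 and a median of 0.00. Its member with the smallest p, Tnip3, an inhibitor of NF-kappa-B signalling, had 12.008, 4.80, 6.13 and 6.86 CPM against 26.7, 26.7, 17.3 and 19.1 CPM (adjusted p = 0.0726, limma). Of 24 chemokines 7 were tested, and 0 passed at the unadjusted or any adjusted threshold, with Ccl24 and Ccl4 at 0.64 and -0.66.

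Receptors and membrane proteins of phagocytes showed a few genes apart. Mgl2, a galactose-binding lectin of macrophages, had 31.97, 24.02, 24.5 and 25.5 CPM with scramble and 70.7, 55.8, 58.5 and 45.4 CPM with the mimic (log2 fold change 1.17 ± 0.19 SE, adjusted p = 0.0552, limma). Ms4a7, a tetraspan protein of macrophages, had 33.7, 16.8, 33.4 and 25.9 CPM against 68.2, 65.7, 73.5 and 64.5 CPM (1.35 ± 0.22 SE, adjusted p = 0.0552, limma). Neither gene's groups overlapped. Ms4a7 also rose with the miR-146a mimic against the same scramble libraries (1.04, adjusted p = 0.0457, limma), where the median of the MS4A list was 1.04 as well. Of 18 Fc, scavenger and phagocytic receptors tested, 8 lay above and 10 below 0. In that list and in the MS4A list limma called 0 genes, and edgeR (0.181%) and DESeq2 (1.26%) each called 1 higher. Trem2, the lipid receptor of disease-associated microglia (DAM), was at -0.44 ± 0.18 SE with overlap, and all 5 tested MS4A genes lay above 0.

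Lysosomal genes leaned slightly downward. Of 46 tested hydrolases and membrane proteins, 32 lay below 0 and the median was -0.14. In limma 0 were called, with 8 lower (6.06%) and 0 higher at an unadjusted p under 0.05, while edgeR called 1 lower (0.172%) and DESeq2 2 (1.08%). The lysosomal median was -0.08 with the miR-29a mimic and 0.03 with miR-146a against the same scramble libraries. Hgsnat, the acetyltransferase of heparan sulphate breakdown, had 147, 127, 135 and 123 CPM against 75.9, 43.5, 50.7 and 48.9 CPM (log2 fold change -1.22 ± 0.20 SE, adjusted p = 0.0552, limma). It has no miR-7a seed match in its 3′ UTR. Psap, the precursor of the saposins, had 4106, 4743, 3701 and 3402 CPM against 2760, 1882, 1964 and 1940 CPM (-0.91 ± 0.18 SE, adjusted p = 0.0726, limma). Both separated in all 4 mimic libraries.

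Of 15 cathepsins tested 10 lay below 0, at a median of -0.29, with 0 called in limma, 5 lower at an unadjusted p under 0.05 (6.06%), 1 called lower by edgeR (0.172%) and 4 by DESeq2 (1.08%). The cathepsin median was -0.37 with the miR-29a mimic and 0.02 with miR-146a against the same scramble libraries, and Ctsk fell by 1.65 with miR-29a (adjusted p = 0.0196, limma). Ctsf had 180, 218, 219 and 193 CPM against 123, 109, 115 and 112 CPM (-0.80 ± 0.15 SE, adjusted p = 0.0726, limma). The 16 osteoclast-like genes had a median of 0.00, with Acp5 up and Ctsk and the proton pump subunit Tcirg1 (-0.65 ± 0.18 SE) among the 8 below 0. The DAM, pro-inflammatory and phagocytic target lists come from the study, and its phagocytic targets were picked through predicted microRNA targets. In limma and edgeR 0 of their genes were called, while DESeq2 called 4 of the DAM raised, 1 of the DAM homeostatic and 3 of the pro-inflammatory genes lower, against 1.08% of all genes. Of 26 DAM raised genes 7 were lower (6.06%) and 1 higher (6.6%) at an unadjusted p under 0.05, and Apoe, the lipid carrier, had 2794, 2768, 3813 and 3175 CPM against 1873, 1667, 1718 and 1954 CPM (-0.79 ± 0.16 SE). Of the 26 phagocytic targets tested 4 were lower (6.06%) and 2 higher (6.6%) at that level. In the pro-inflammatory list 4 of 22 tested genes were lower (6.06%) and 3 higher (6.6%) at that level. Its member Cybb, the catalytic subunit of the phagocyte oxidase, had 550, 347, 398 and 482 CPM against 236, 218, 210 and 279 CPM (-0.91 ± 0.18 SE, adjusted p = 0.078, limma).

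Immediate-early genes, the transcription factors induced within minutes of a stimulus, were low with the mimic. Of 21 tested members 17 lay below 0, at a median of -0.48. In limma 0 were called, 10 were lower (6.06%) and 0 higher at an unadjusted p under 0.05, and edgeR called 2 lower (0.172%) and DESeq2 6 (1.08%). The median was -0.13 with the miR-29a mimic and -0.22 with miR-146a against the same scramble libraries. Nr4a1, an orphan nuclear receptor, had 14.8, 16.6, 39.3 and 22.6 CPM with scramble and 2.94, 1.53, 3.34 and 3.58 CPM with the mimic, without overlap (log2 fold change -2.82 ± 0.54 SE, adjusted p = 0.0726, limma). Ier2 had 45.4, 50.5, 83.7 and 62.9 CPM against 29.1, 23.7, 20.05 and 29.8 CPM (-1.18 ± 0.25 SE, adjusted p = 0.0947, limma). Egr3, with an 8mer, had 8.97, 11.2, 17.2 and 11.8 CPM against 2.78, 0.764, 4.45 and 5.97 CPM (-1.96 ± 0.46 SE, adjusted p = 0.127, limma). All 3 were below scramble in every mimic library. Fos, with a 7mer-m8, was at or under 1.96 CPM with the mimic and between 3.33 and 9.99 CPM with scramble.

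Glycolysis genes leaned slightly downward. Of 27 glycolysis and hypoxia genes 23 lay below 0 at a median of -0.16, with 0 called in limma, 7 lower at an unadjusted p under 0.05 (6.06%), 2 called lower by edgeR (0.172%) and 3 by DESeq2 (1.08%). Against the same scramble libraries the median was -0.12 with the miR-29a mimic and -0.27, lower still, with miR-146a. Eno3, an enolase, had 84.5, 78.2, 103 and 72.9 CPM against 42.2, 26.7, 43.4 and 33.4 CPM (-1.15 ± 0.21 SE, adjusted p = 0.0684, limma), with no overlap. The medians of the 24 sterol and fatty acid genes, the 26 antioxidant genes and the 17 genes of the Atf4 stress response were 0.16, -0.06 and 0.00. In those 3 lists limma called 0 genes, edgeR and DESeq2 called Cat alone, and at an unadjusted p under 0.05 there were 1, 2 and 1 lower genes and 0 higher.

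Cell cycle genes lay above scramble in 3 of the mimic libraries and near it in the shallowest one. All 30 mitosis and spindle genes lay above 0, at a median of 0.69, with 21 higher at an unadjusted p under 0.05. These compare with 6.6% of all genes higher at that level. In limma and edgeR 0 were called, and DESeq2 called 6 higher (1.26% of all genes). The list median was 0.80, 0.91 and 0.77 in mimic replicates 1 to 3 and 0.08 in replicate 4, the shallowest library. Ccna2, a cyclin of S phase and mitosis, had 76.2, 70.2, 60.1 and 73.8 CPM with scramble and 132, 154, 152 and 85.9 CPM with the mimic (0.90 ± 0.19 SE, adjusted p = 0.0947, limma). Of 41 S-phase genes 39 lay above 0 at a median of 0.43, with 0 called in limma, 8 higher at an unadjusted p under 0.05 (6.6%), 2 called higher by edgeR (0.181%) and 3 by DESeq2 (1.26%). The S-phase median was 0.65, 0.39 and 0.44 in mimic replicates 1 to 3 and -0.13 in replicate 4, below scramble. Esco2, a cohesin acetyltransferase, had 4.20, 2.67, 2.496 and 3.59 CPM against 11.45, 25.97, 14.5 and 8.35 CPM (1.99 ± 0.35 SE, adjusted p = 0.0645, limma).

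Replication-dependent histone genes, whose messages end in a stem-loop in place of a poly(A) tail, had a median of 0.76 over 49 tested members, with 45 above 0. In limma 0 were called, 25 were higher at an unadjusted p under 0.05 (6.6% of all genes), and edgeR called 2 higher (0.181% of all genes) and DESeq2 15 (1.26%). The medians of 0.15 in mimic replicate 1 against 1.25, 1.24 and 0.80 in replicates 2 to 4 went with the structural RNA share of those libraries, and the part of that share in the result was not tested. Hist1h3f had 90.4, 187, 138 and 192 CPM with scramble and 182, 1390, 849 and 556 CPM with the mimic, so that mimic replicate 1 lay within the scramble range. Histone genes are near-identical copies that share reads, and single members are uncertain.

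Structural RNAs divided the mimic libraries in the same way in the restoration used here, on which the values of replicate 1 depend. The list medians of 31 snoRNA and Cajal body RNA genes were -1.01 in mimic replicate 1 and 2.57, 3.52 and 2.77 in replicates 2 to 4, and those of 9 other structural RNA genes were -0.78, 3.25, 2.81 and 2.81. In limma 0 of either list were called, with 5 and 6 higher (6.6% of all genes) and 1 and 0 lower (6.06%) at an unadjusted p under 0.05. By edgeR 1 and 0 were called higher and by DESeq2 14 and 4, against 0.181% and 1.26% of all genes. Terc, the telomerase RNA, had 84.5, 184, 185 and 197 CPM with scramble and 123, 1476, 912 and 1087 CPM with the mimic. Scarna6 had 75.8, 264, 180 and 242 CPM against 74.6, 3113, 2462 and 2787 CPM. Mimic replicate 1 lay within the scramble range for Terc and just below it for Scarna6, and the other 3 lay far above it.

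Of 16 nuclear and snoRNA-host long noncoding RNAs 10 lay above and 6 below 0, and 0 were called in limma and edgeR, 2 higher in DESeq2 (1.26%), with 3 higher (6.6%) and 1 lower (6.06%) at an unadjusted p under 0.05. Snhg20 had 44.7, 60.1, 91.7 and 65.2 CPM against 33.04, 497, 792 and 569 CPM. Neat1, the scaffold of paraspeckles, was at -1.03 ± 0.32 SE with overlap. Of the 9 mitochondrially encoded genes tested 8 lay above 0, at a median of 0.91, with 0 called in limma and edgeR, 1 higher in DESeq2 (1.26%) and 6 higher at an unadjusted p under 0.05 (6.6%). With the miR-29a and miR-146a mimics the median of the mitochondrial list was 0.81 and 1.31 against the same scramble libraries. Summed over all 13 such genes, untested ones with uncertain decimal marks included, the level was 19626, 10485, 28393 and 20487 CPM with scramble and 21122, 22477, 23421 and 20283 CPM with the mimic, so that the groups overlapped. mt-Nd4, a subunit of complex I, had 806, 456, 456 and 413 CPM against 1086, 813, 1231 and 822 CPM. Of 71 cytosolic ribosomal protein genes 67 lay below 0 at a median of -0.34, with 0 called in limma and edgeR, 2 lower in DESeq2 (1.08%) and 13 lower at an unadjusted p under 0.05 (6.06%). Summed likewise over all 84 listed genes, the level ranged from 62022 to 109930 CPM with scramble and from 56241 to 96830 CPM with the mimic, and the groups overlapped. The 75 nuclear-encoded oxidative phosphorylation genes had a median of -0.08, with 0 called by any of the 3 tools and 1 higher at an unadjusted p under 0.05.

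**Figure D5:**
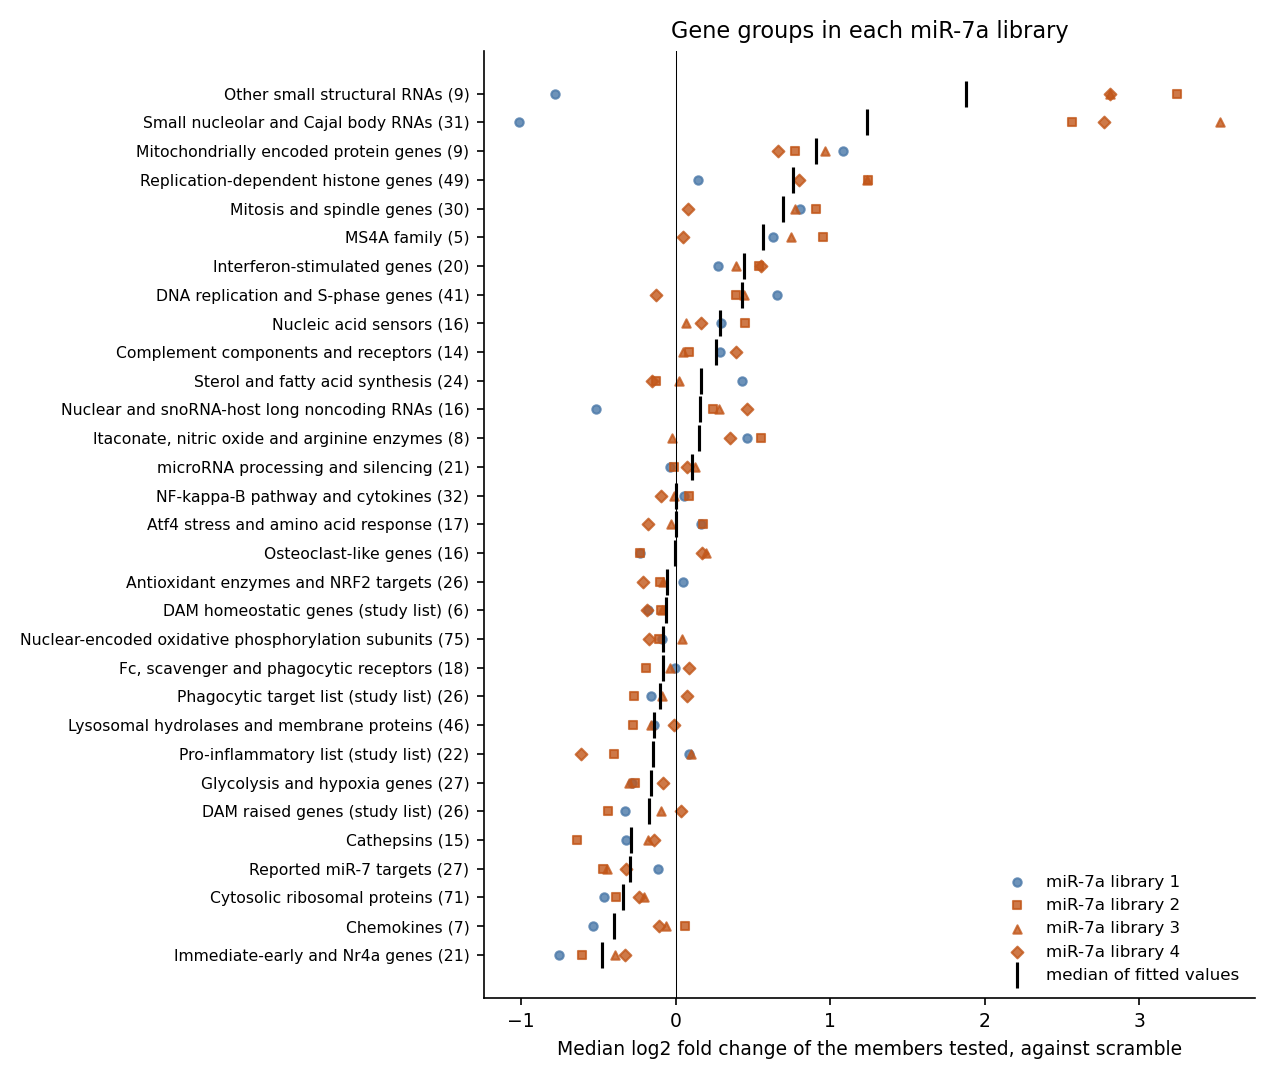
Median log2 fold change over scramble of the tested members of each gene list, with the number tested in brackets, as 1 point for each miR-7a mimic library and a black line for the median of the fitted values. The snoRNA and other structural RNA lists lie at -1.01 and -0.78 in replicate 1 and at 2.57 or above in replicates 2 to 4, while the immediate-early list lies below 0 in all 4 libraries (-0.75 to -0.33).

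Under LPS the same mimic gave more calls. In 4 LPS_miR-7a and 4 LPS_scramble libraries of 2724955 to 20488693 counts, 371 of 12996 genes passed in limma (2.85%), 217 higher (1.67%) and 154 lower (1.18%). A count of calls under one condition and not the other is not a difference between conditions, which the interaction tests. Ifit2, Acp5 and C3 were called in both conditions, with log2 fold changes of 1.84, 1.98 and 1.83 under vehicle and 1.49, 1.13 and 0.87 under LPS. Irg1 (0.64), Adssl1 (-0.63) and Gm2026 (0.34) were not called under LPS.

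Members that stood apart under vehicle without passing were in part called under LPS. Cat fell by 1.23 under LPS (adjusted p = 0.00217, limma), and Hgsnat fell by 1.502 (adjusted p = 0.000889, limma). Of the immediate-early list 5 of the 22 tested under LPS fell (1.18% of all genes), among them Nr4a1 (-2.72), Egr3 (-2.26) and Ier2 (-0.91), and 10 of 31 interferon-stimulated genes tested under LPS rose (1.67% of all genes), 5 of them among the 20 tested under vehicle. The mitosis list and the histone list had medians of -0.09 and -0.22 under LPS. The lysosomal, DAM raised and phagocytic target lists, with medians below 0 under vehicle (-0.14, -0.17 and -0.10), had medians of 0.14, 0.12 and 0.16 under LPS, and the difference between the conditions was not tested for these lists. The genes with a miR-7a 8mer had a median of -0.08 under LPS (428 genes), and 13 of them were called lower (3.04%, against 1.18% of all genes) and 5 higher (1.17%).

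The interaction, the mimic effect under LPS minus that under vehicle, passed for 2 of 12141 genes (0.0165%), 1 upward and 1 downward (0.00824% each). Txnip, an arrestin that binds thioredoxin, lay between 764 and 1255 CPM in the 8 vehicle libraries, with overlapping groups. Under LPS it had 131, 86.7, 110 and 84.1 CPM with scramble and 518, 525, 517 and 553 CPM with the mimic, and the interaction was 2.47 ± 0.22 SE (adjusted p = 8.76e-06, limma). Brox, a protein with a BRO1 domain, lay between 70.5 and 95.4 CPM in the 8 vehicle libraries, and under LPS at 72.4 to 82.6 CPM with scramble and 8.51 to 9.59 CPM with the mimic (interaction -3.11 ± 0.19 SE, adjusted p = 3.36e-08, limma). On the values as deposited, without restored decimal marks, neither gene passed (adjusted p = 0.897 for Txnip and 0.832 for Brox, limma).

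Against the other mimics, without the scramble libraries, more genes passed. VEH_miR-7a differed from the mean of VEH_miR-29a and VEH_miR-146a in 501 of 11514 genes (4.35%), 294 higher (2.55%) and 207 lower (1.8%) in limma. The mimic libraries are the same in both comparisons, so they are not independent. Irg1, Acp5, Ifit2 and C3 rose here too (1.81, 2.36, 1.00 and 1.30), and Adssl1 fell by 1.04, while Gm2026 was at -0.25 and was not called. Over the same scramble libraries Gm2026 rose by 3.23 with miR-29a (adjusted p = 0.0196, limma) and by 3.22 with miR-146a (adjusted p = 0.0269, limma), beside 3.06 with miR-7a. Of 408 genes with a miR-7a 8mer, 31 were called lower (7.60%) and 4 higher (0.98%), against 75 lower (1.28%) and 206 higher (3.53%) of 5842 genes without a match.

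Of the reported targets 4 of 27 fell against the other mimics, where 1.8% of all genes were called lower. Among them were Mknk2 (-1.03, adjusted p = 0.00921), Mtor (-0.74, adjusted p = 0.0119) and Mknk1 (-0.81, adjusted p = 0.0167), all in limma. Tpp1 (-0.98), Hgsnat (-1.17), Psap (-0.76), Cat (-0.91), Egr3 (-1.87) and Cybb (-1.03) fell as well. 1700020I14Rik fell by 0.76 in this comparison, but its log2 fold change over scramble was -0.11 for the miR-7a mimic against 0.33 for miR-29a and 0.88 for miR-146a (adjusted p = 0.0413 for the last, limma). Ctsk (-0.58), Pan2 (-0.44) and Spata2 (-1.09) were not called. Calls numbered 175 without mimic replicate 3 and 207 without mimic replicate 2.

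Cell cycle and histone genes were higher than with the other mimics: 23 of 30 mitosis genes, 19 of 41 S-phase genes and 37 of 41 histone genes tested in that comparison rose, against 2.55% of all genes. The other mimics were themselves low for these lists against the same scramble libraries. The histone median was -0.75 with miR-29a and -1.62 with miR-146a against 0.76 with miR-7a, and the mitosis median was -0.13 and -0.36 against 0.69. Structural RNA made up 3.86% to 18.8% of the miR-29a and miR-146a libraries under vehicle, against 33.8% to 37.2% of miR-7a replicates 2 to 4 and 4.12% of replicate 1, in which the mitosis and S-phase medians over scramble were 0.80 and 0.65 and the histone median 0.15. The part of structural RNA in these differences was not tested. For ribosomal protein genes the medians were -0.52, -0.48 and -0.34 with miR-29a, miR-146a and miR-7a. Of 76 nuclear-encoded oxidative phosphorylation genes 14 were also called higher against the other mimics (2.55% of all genes). The median of that list over scramble was -0.41, -0.45 and -0.08 with miR-29a, miR-146a and miR-7a.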

How the data were processed

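Total RNA from the 32 samples had been depleted of ribosomal RNA and made into CORALL libraries. The authors quantified reads with salmon on GRCm38 and deposited 1 table of estimated counts, of which 8 of the 32 columns carry the main comparison. The deposited values had lost their decimal marks. Of 590874 values above 0, 28.5% were given decimals back (up to 3) by a model that placed each value by its gene's level in the other libraries, and 0.978% stayed uncertain. Genes with a placement probability under 0.9 in any compared library were left out, so a restored value is an estimate. On simulated data 99.8% of the certain values came back as drawn. Whether the decimal marks restored to the measured data are right was not tested. For mimic replicate 1 the restoration used here gave a structural RNA share of 4.12%, and the simpler one gave 27.1%.

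Restored values were rounded to whole counts, filtered with filterByExpr (minimum count 10), scaled by TMM and tested with limma-voom (limma 3.58.1, edgeR 4.0.16, R 4.3.3) on the libraries of each comparison, with Benjamini-Hochberg adjustment. The submitters' processing notes name edgeR and limma. The scripts used Python 3.11.15 with NumPy 2.4.6, SciPy 1.17.1 and pandas 2.3.3. Tested on simulated data for this comparison (10974 genes), limma called 51 of 61 genes changed 4-fold, 11 of 61 changed 2-fold, 1 of 62 changed 1.5-fold and 7 of 10790 unchanged genes. Depth was 1239255 to 9622869 counts per library, and no 2 libraries were identical.

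The 3′ UTR of 1 transcript per gene came from GENCODE M21, to which 45143 of 45706 gene IDs matched. Genes named were those called, the 10 largest changes in each direction among non-overlapping genes called with a replicate block, the 3 members of each list with the smallest p, the reported miR-7 targets and miR-7 loci, and 6 genes rich in sites. The comparison, the 40 gene lists and this rule were chosen with earlier results of these data known. Alternatives were the deposited values unrestored, a simpler restoration, a stricter probability, other scaling and filters, edgeR's quasi-likelihood test, DESeq2 1.42.0, quality weights, all groups in one fit, a replicate block and leaving out each library. Mimic replicate 1 alone and the block under LPS were added after seeing the data. Some genes and their sequences are not reported here.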

Additional observations from a re-analysis of the deposited data

Results flagged for a closer look

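Of 298 groups of 4 libraries examined, 21 held 1 library far from the other 3 by Dixon's criterion, and chance marks about 1 in 20 groups. The structural RNA share of mimic replicate 1 (4.12%, and 27.1% with the simpler restoration) was one of them. In the mimic group, replicate 1 also stood apart for Gm6682 (0.981 CPM), Gm7336 (1.15 CPM), Gm10481 (1.64 CPM), Gm12166 (1.96 CPM), Ube2a (27.6 CPM) and Psap (2760 CPM). Replicate 2 stood apart for H2-Q6 (6.11 CPM), replicate 3 for Myo18b (17.8 CPM) and Edem1 (151 CPM), and replicate 4 for Nlrp3 (10.7 CPM), Cebpb (35.8 CPM) and Mbp (15.5 CPM). In the scramble group, replicate 1 stood apart for Ifit2 (10.1 CPM), Dcp2 (55.4 CPM), Ms4a14 (11.9 CPM), Ms4a4a (5.93 CPM), mt-Nd4 (806 CPM) and Terc (84.5 CPM), and replicate 3 for Gm2026 (4.99 CPM) and Xrcc2 (4.77 CPM).

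The mimic effect differed between LPS and vehicle, by the interaction in limma, for Txnip (2.47, adjusted p = 8.76e-06) and Brox (-3.11, adjusted p = 3.36e-08).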

How the results depend on the processing

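The number of genes called under vehicle depended on most choices. The log2 fold changes of the 6 genes called kept their direction in every alternative run, while 40 of 147 named genes, none of them called, took both signs, Irs2 for one lying between -0.44 and 0.11 when 1 library was left out. The number called was 56 on the values as deposited, 69 with the simpler restoration, 30 at a probability of 0.99, 45 without structural RNA genes in the scaling, 24 without a filter, 17 at a minimum count of 30, 39 with edgeR, 259 with DESeq2, 549 with quality weights and 179 with all 8 groups in one fit, against 6. As deposited only Acp5, Ifit2 and Irg1 of the 6 were still called, while C3 (adjusted p = 0.449), Adssl1 (0.449) and Gm2026 (0.265) were not. Gm2026 was not tested at a probability of 0.99, and Ifit2 was not called with all 8 groups in one fit (adjusted p = 0.0524), all in limma. Mimic replicate 1 alone against scramble gave 1 call, an arm of 1 library that says nothing about stability. The split moved from 5 higher and 1 lower to 8 and 48 as deposited, where the median of all genes was -0.32, to 15 and 30 without structural RNA genes, and to 6 and 18 unfiltered, where that median was 0.32. Leaving out 1 library gave 0 to 243 calls under vehicle, 2 to 137 for the interaction, 175 to 538 against the other mimics and a structural RNA difference of 15.1 to 26.1 points. The interaction had 62 calls as deposited and 17 with the simpler restoration, and the comparison with the other mimics 91 as deposited. With the simpler restoration the structural RNA difference was 24.4 points (p = 0.0286, exact permutation test, the smallest possible), while p was 0.2 in the same test without mimic replicate 2, 3 or 4. Among named genes, 2436 repeats kept the side of the threshold, 418 passed newly, 35 no longer passed and 140 moved by more than the spread between replicates, as did 85 of the 818 repeats of list and site class medians. The cause was not tested.

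With a replicate block, 355 genes were called under vehicle, 1187 under LPS, 39 for the interaction and 1513 against the other mimics. Deviations of libraries with the same number correlated at 0.30, -0.11, 0.10 and 0.16. Of the 4 mimic libraries 3, replicate 2 being the exception, correlated best with the scramble library of their own number. The fit without a block was kept as the main one because the value of replicate 2 was below 0. Whether libraries with the same number come from the same experiment was not tested, and the labels only number them. Libraries of 1239255 to 2528948 counts limit what can be seen of low genes.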
